A study of Mus musculus with 6 samples.

Results

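The 10 genes described here encode transcription factors used to mark or study kidney stroma, the fibroblasts, pericytes and smooth muscle cells between tubules and around vessels: Foxd1, Tbx18, Tcf21, Meis1, Meis2, Ebf1, Runx1, Twist1, Prrx1 and Zbtb16. They were chosen by symbol from the 31815 gene rows of the deposited count table. Each symbol matched 1 row, all 10 passed the filter on low counts, and they are 10 of 15462 genes tested. The list was drawn up with results of the comparison below already known, so the differences between the sorts are given as a description and support nothing by themselves.

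RNA was measured in sorted Acta2-reporter cells of injured mouse kidneys. In the tdT+GFP+ group, cells carried a red tdT label, switched on by a tamoxifen-inducible Cre in the Axin2 gene, together with a green GFP label from an Acta2 reporter. In the tdT-GFP+ group, cells carried the green label alone. Both groups had the genotype Axin2CreERT2/+:R26RtdT/+:Acta2-GFP and came from male mice aged 9 to 12 weeks that had bilateral ischemia reperfusion injury, tamoxifen on days 2 and 4, and sorting on day 6. Libraries with the same replicate number were taken as 1 kidney, so kidneys 1, 2 and 3 each gave 1 library of both groups (n = 3 each). Deviations from the group means correlated negatively within kidneys 2 and 3 and positively across them. Differences within a kidney therefore rest on the numbering alone. Acta2 is also used by vascular smooth muscle, so the green gate is not specific to myofibroblasts, and a cell in which Cre failed to recombine counts as tdT-GFP+. The libraries analysed here all come from injured kidneys. Axin2 reports canonical Wnt activity, and the red label depends on tamoxifen on days 2 and 4. The comparison sets Acta2-reporter cells labelled through Axin2 after those doses against the other reporter cells, which the design text calls the myofibroblast population. Wnt activity at sorting on day 6 is not measured by the label.

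Stromal cells of the kidney descend largely from Foxd1-expressing progenitors of the embryo, and Tbx18 marks the mesenchyme around the ureter. Later identity is held by several families of factors. Tcf21 and Twist1 are basic helix-loop-helix (bHLH) proteins that bind E-box motifs as dimers with E proteins, Meis1 and Meis2 are TALE homeodomain proteins that work with other homeodomain proteins, and Ebf1 and Runx1 are best known from blood cell development but are also used by mesenchyme. Prrx1 is a paired-related homeodomain protein of limb and connective tissue mesenchyme, and Zbtb16 (also called PLZF) is a zinc finger repressor that glucocorticoids induce in many cell types.

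Total counts were 26919514 to 33029933 in tdT+GFP+ and 25697348 to 31337198 in tdT-GFP+ libraries, where 3 counts correspond to 0.0915 to 0.114 and 0.0988 to 0.112 CPM (counts scaled to the size of the library, with sizes adjusted by the TMM method). Fibroblast markers were abundant in both groups, with a summed level of 53580 to 60340 CPM over 12 genes in tdT+GFP+ and 41690 to 61940 CPM in tdT-GFP+ libraries, so both sorts held cells with a fibroblast profile. Markers of other cells were present and unequal. The summed level of 12 endothelial markers was 745 to 1345 CPM in tdT+GFP+ and 1498 to 3198 CPM in tdT-GFP+ libraries, with no overlap, and all 12 had negative fold changes. That of 12 macrophage and monocyte markers was 459 to 1682 CPM in tdT+GFP+ and 337 to 1005 CPM in tdT-GFP+ libraries, with overlap, and 11 of 12 had positive fold changes. None of the markers in these lists was at 0 in every library. Fewer cells of a type and less RNA per cell cannot be told apart in such bulk libraries.

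Of the 10 genes, Tcf21 was by far the most abundant and Tbx18 the least. Levels between genes were compared as TPM, counts divided by the exonic length of the gene and scaled to a common total. Tcf21, which is needed for stromal and glomerular development, averaged 333 ± 69.4 TPM in tdT+GFP+ and 434 ± 199 TPM in tdT-GFP+ cells (SD, n = 3 each), above 98.5% of the 22614 genes with a count. Its mean was 7.8 times that of Meis2, the next gene, when the ratio was taken within each library and averaged over 6 libraries. Meis2 followed at 45.8 ± 2.28 TPM in tdT+GFP+ and 51.0 ± 3.29 TPM in tdT-GFP+ cells. Prrx1 had 41.8 ± 3.93 TPM in tdT+GFP+ and 35.8 ± 7.67 TPM in tdT-GFP+ cells, and Runx1 had 40.8 ± 2.23 TPM in tdT+GFP+ and 33.5 ± 11.3 TPM in tdT-GFP+ cells. Twist1, Meis1 and Ebf1 formed a lower group with means over all 6 libraries of 25.8, 23.3 and 21.7 TPM. Zbtb16, Foxd1 and Tbx18 had 6.28, 3.21 and 2.22 TPM, near the middle of the genes with a count (percentiles 53.1, 46.0 and 42.9).

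The order was firm at 2 places only. In all 6 libraries Tcf21 stood above Meis2 and Ebf1 above Zbtb16, with no overlap of their ranges over the libraries. Meis2 also stood above Prrx1 in 6 of 6 libraries, but their ranges overlapped. The other neighbours changed places from library to library, and Prrx1 was above Runx1 in 2 of 6. With the length of the longest transcript in place of all exonic bases, Ebf1 moved to rank 5 and Twist1 to rank 7, and Runx1 and Prrx1 exchanged ranks 3 and 4. The levels of Foxd1 and Tbx18, the founding markers of the lineages, were thus the lowest of the 10 in this length scaling and in the alternative one.

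**Figure D1:**
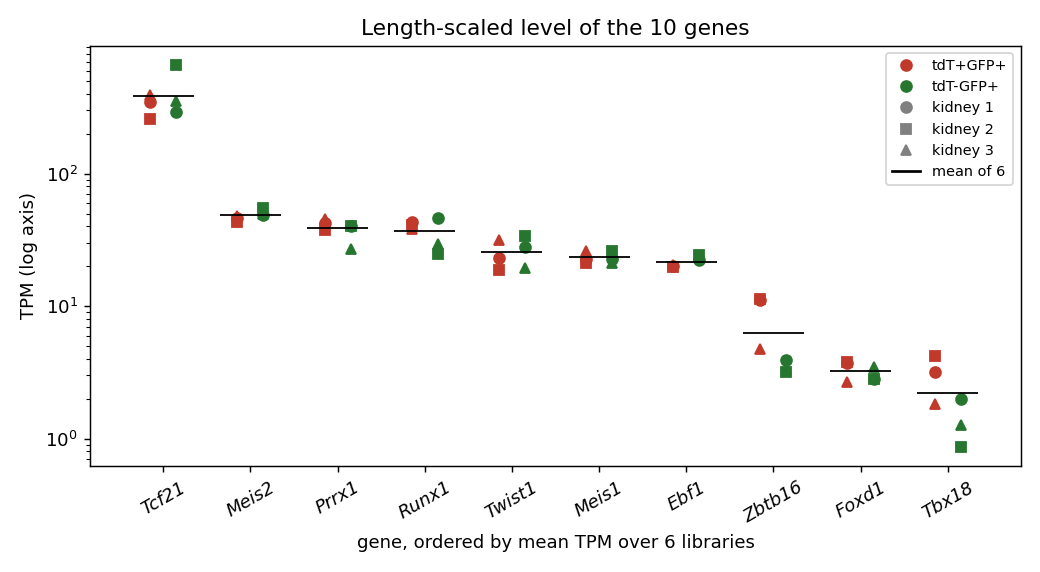
Length-scaled level (TPM, log axis) of the 10 genes in each library, tdT+GFP+ in red at the left of each gene and tdT-GFP+ in green at the right, with 1 symbol per kidney and a line at the mean of 6 libraries. Tcf21 lies above 250 TPM in every library, while Zbtb16, Foxd1 and Tbx18 lie below 12 TPM.

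Zbtb16 showed the widest difference between the sorts. Zbtb16 (ENSMUSG00000066687.5, GRCm38 chromosome 9, 48654297 to 48836222, minus strand, protein coding) had 16.4, 16.8 and 7.12 CPM in tdT+GFP+ cells of kidneys 1, 2 and 3, against 5.76, 4.63 and 4.71 CPM in tdT-GFP+ cells. The groups did not overlap, and the kidney 3 tdT+GFP+ library lay closer to the tdT-GFP+ libraries than to the other tdT+GFP+ libraries. The log2 fold change, tdT+GFP+ over tdT-GFP+ cells, came to 1.42 with SE 0.34 and a 95% interval of 0.61 to 2.22, which is 2.67 times the level. Within single kidneys the log2 difference was 1.50 in kidney 1, 1.85 in kidney 2 and 0.59 in kidney 3. Over 17 alternative settings the fold change ran from 1.16 without both libraries of kidney 2 to 1.73 without the kidney 3 tdT+GFP+ library.

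Tbx18 had the second widest difference, at a low level and with wide scatter. Tbx18 (ENSMUSG00000032419.8, chromosome 9, 87702800 to 87731260, minus strand), a T-box factor of ureteric and mural cell precursors, had 4.15, 5.58 and 2.44 CPM in tdT+GFP+ cells of kidneys 1, 2 and 3, against 2.63, 1.12 and 1.59 CPM in tdT-GFP+ cells. The value was higher in tdT+GFP+ cells within each of the 3 kidneys, but the groups overlapped, because the kidney 3 tdT+GFP+ library lay below the kidney 1 tdT-GFP+ library. Its log2 fold change was 1.18 (SE 0.42, 95% interval 0.17 to 2.19). Kidney 2 carried most of it, with a difference of 2.25 against 0.64 and 0.59 in kidneys 1 and 3, and without both libraries of kidney 2 the fold change was 0.63. A gene model of the opposite strand that is not a row of the table overlaps exons of Tbx18. A model of the same strand, also not a row, overlaps exons of Meis1. Antisense models that are rows overlap exons of Meis1 (3 to 7 counts) and Runx1 (0 to 4 counts). The libraries kept the strand, but no source used here states the strand setting of the counting.

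Foxd1, the marker of embryonic stromal progenitors, had a difference within the spread between libraries. Foxd1 (ENSMUSG00000078302.5, chromosome 13, 98354242 to 98359305, plus strand) had 5.25, 5.41 and 3.81 CPM in tdT+GFP+ cells against 4.02, 3.89 and 4.64 CPM in tdT-GFP+ cells of kidneys 1, 2 and 3. The groups overlapped, and kidney 3 went the other way from kidneys 1 and 2. Its log2 fold change was 0.21 (SE 0.20), 0.06 without both libraries of kidney 2 and 0.43 without both of kidney 3.

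The promoters of Tbx18 and Foxd1 in the RefSeq table of GRCm38.p6, 250 bases before to 50 bases after the start, are printed with TGACAG in capitals, the letters that Meis proteins prefer, since these genes are the lineage markers of the list and their promoters were the member promoters that held these letters. Their places are chr9:87731211-87731510, minus strand, for Tbx18 and chr13:98353995-98354294, plus strand, for Foxd1.
Tbx18: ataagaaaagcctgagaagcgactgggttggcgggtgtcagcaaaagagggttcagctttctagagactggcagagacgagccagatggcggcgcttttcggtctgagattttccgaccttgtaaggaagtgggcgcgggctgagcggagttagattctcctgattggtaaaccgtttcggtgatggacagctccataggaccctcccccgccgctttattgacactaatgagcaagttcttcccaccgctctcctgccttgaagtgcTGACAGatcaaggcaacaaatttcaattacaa
Foxd1: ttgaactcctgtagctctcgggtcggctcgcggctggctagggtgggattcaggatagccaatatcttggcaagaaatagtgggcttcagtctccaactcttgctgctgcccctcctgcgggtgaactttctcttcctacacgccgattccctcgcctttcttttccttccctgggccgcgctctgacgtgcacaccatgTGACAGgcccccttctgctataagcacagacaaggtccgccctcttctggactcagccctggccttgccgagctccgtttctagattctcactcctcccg
The match begins at position 19 in Tbx18 and at position -50 in Foxd1, counted from 1 at the transcription start with no position 0. Of 11 promoters listed for the 9 genes other than Zbtb16, 2 held TGACAG on either strand (18.2%), against 19.2% of all 32851 promoters in the table.

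Ebf1 was the steadiest gene of the 10 and the other one whose groups did not overlap. Ebf1 (ENSMUSG00000057098.14, chromosome 11, 44617317 to 45008091, plus strand) had 54.5, 54.0 and 56.0 CPM in tdT+GFP+ cells against 60.8, 65.2 and 61.0 CPM in tdT-GFP+ cells of kidneys 1, 2 and 3. Every tdT+GFP+ library lay below every tdT-GFP+ library by a small margin. Its log2 fold change came to -0.19 with SE 0.06 and a 95% interval of -0.33 to -0.04, and it ran from -0.22 to -0.15 over the 17 alternatives. Its coefficient of variation between libraries of a group was 3.12%, and 5.58% of 4392 tested genes within a factor of 2 of its mean level had a lower one. Mural cells also use Ebf1. The summed level of 13 pericyte and vascular smooth muscle markers was 2604 to 2981 CPM in tdT+GFP+ and 2790 to 3633 CPM in tdT-GFP+ libraries. The sums overlapped, with 11 of 13 fold changes negative and 2 positive. Pdgfrb alone gave 1481 to 1663 and 1370 to 1758 CPM of these sums. Picked after their values were seen, Rgs5 (94.0 to 185 against 268 to 487 CPM) and Notch3 (228 to 276 against 318 to 418 CPM) did not overlap. The part of these markers in the Ebf1 difference was not tested.

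Runx1 held a narrow level in tdT+GFP+ cells and a scattered one in tdT-GFP+ cells. Runx1 (ENSMUSG00000022952.17, chromosome 16, 92601466 to 92826149, minus strand), the DNA-binding subunit of core-binding factor, had 143, 140 and 130 CPM in tdT+GFP+ cells against 155, 80.9 and 94.7 CPM in tdT-GFP+ cells of kidneys 1, 2 and 3. The kidney 1 tdT-GFP+ library was the highest of all 6, and the other tdT-GFP+ libraries were the lowest. The log2 fold change was 0.32 (SE 0.24). It was 0.67 without the kidney 1 tdT-GFP+ library (adjusted p = 0.133, edgeR, with a range of 0.133 to 0.915 over the alternatives) and 0.13 without the kidney 2 tdT-GFP+ library.

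A RefSeq start of Ebf1 at chr11:44617850-44618149, plus strand, and the distal start of Runx1 at chr16:92826025-92826324, minus strand, are printed. The letters that Runx proteins prefer are in capitals, TGTGGT or its reverse complement ACCACA. The other starts listed for Ebf1 and Runx1 held no such match. The printed promoters are shown because Runx1 is itself a member and its own distal start holds these letters more than once.
Ebf1: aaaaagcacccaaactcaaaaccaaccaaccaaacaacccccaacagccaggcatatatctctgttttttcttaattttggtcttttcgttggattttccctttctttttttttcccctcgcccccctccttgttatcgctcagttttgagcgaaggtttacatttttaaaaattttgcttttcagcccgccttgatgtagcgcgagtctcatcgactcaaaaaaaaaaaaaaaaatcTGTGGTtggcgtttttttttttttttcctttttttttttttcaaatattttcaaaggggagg
Runx1: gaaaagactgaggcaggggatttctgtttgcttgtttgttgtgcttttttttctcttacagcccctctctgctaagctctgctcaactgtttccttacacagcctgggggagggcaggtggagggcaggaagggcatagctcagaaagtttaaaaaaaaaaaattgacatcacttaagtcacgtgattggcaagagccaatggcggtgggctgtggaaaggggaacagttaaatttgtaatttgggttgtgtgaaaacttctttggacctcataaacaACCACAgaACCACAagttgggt
The Ebf1 promoter held 1 match, at position -12, and the Runx1 promoter 2, at positions 29 and 37 downstream of the start. Of the 11 member promoters 3 held such a match (27.3%), against 16.8% of all promoters, and the remaining one was that of Meis1 at position -166. The T-box letters AGGTGTGA, the forkhead letters TGTTTAC, the palindromic Ebf motif and the TCF/LEF letters CTTTGAT, searched on both strands like all the others, were in none of the 11 windows, and occurred in 1.28%, 3.65%, 0.904% and 3.73% of all promoters. The E-box letters CAGCTG and CATATG, of the class that Tcf21 and Twist1 bind, were also in none of the 11, against 16.3% and 3.91% of all promoters, and neither was the palindromic glucocorticoid receptor motif (0.475% of all). The GC box GGGCGG was in 2 of the 11 (18.2%, against 35.7% of all), TATAAA in 2 (18.2%, against 13.6%), the homeodomain letters TAATTA in 1 (9.09%, against 5.29%) and CCAAT in 7 (63.6%, against 37.4%). A match is a run of letters and not a measured binding site.

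Tcf21 varied more between libraries than almost any gene of its level. Tcf21 (ENSMUSG00000045680.8, chromosome 10, 22817281 to 22820174, minus strand) had 227, 170 and 261 CPM in tdT+GFP+ cells against 190, 425 and 220 CPM in tdT-GFP+ cells of kidneys 1, 2 and 3. The kidney 2 tdT-GFP+ library stood apart at the top, and the kidney 2 tdT+GFP+ library was the lowest of the 6. The log2 fold change was -0.34 (SE 0.33), and it turned to 0.09 without the kidney 2 tdT-GFP+ library and to 0.24 without both libraries of kidney 2. Within kidneys 1 and 3 the value was higher in tdT+GFP+ cells, by 0.26 and 0.25 on the log2 scale. The coefficient of variation within groups was 35.7%, above that of 97.5% of 1225 genes of like level. Podocytes also use Tcf21. A list of 10 podocyte markers together had 586 to 758 CPM in tdT+GFP+ and 792 to 853 CPM in tdT-GFP+ libraries, and their part in the Tcf21 values was not tested.

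Twist1, a bHLH factor known from mesenchymal transitions, also had no shared direction. Twist1 (ENSMUSG00000035799.6, chromosome 12, 33957671 to 33959829, plus strand) had 10.4, 8.67 and 14.5 CPM in tdT+GFP+ cells against 12.7, 15.2 and 8.42 CPM in tdT-GFP+ cells of kidneys 1, 2 and 3. The 2 groups covered nearly the same range. Its log2 fold change was -0.11 (SE 0.27), with differences of -0.28, -0.80 and 0.78 within kidneys 1, 2 and 3.

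The TALE homeodomain genes Meis1 and Meis2 had fitted differences near 0. Meis1 (ENSMUSG00000020160.18, chromosome 11, 18879817 to 19018985, minus strand) had 66.6, 62.6 and 77.8 CPM in tdT+GFP+ cells against 66.7, 75.9 and 59.0 CPM in tdT-GFP+ cells of kidneys 1, 2 and 3. Its fitted difference was 0.04 on the log2 scale (SE 0.12, 95% interval -0.25 to 0.33). Meis2 (ENSMUSG00000027210.20, chromosome 2, 115863064 to 116065839, minus strand) had 155, 147 and 163 CPM in tdT+GFP+ cells against 164, 181 and 159 CPM in tdT-GFP+ cells of kidneys 1, 2 and 3. Its fitted difference was -0.11 on the log2 scale (SE 0.08, 95% interval -0.31 to 0.08). The Meis2 value was -0.07 without the kidney 2 tdT-GFP+ library and -0.03 without both libraries of kidney 2. In both genes the groups overlapped. The ratio of Meis2 to Meis1 in CPM was 2.32, 2.35 and 2.09 in tdT+GFP+ and 2.45, 2.38 and 2.69 in tdT-GFP+ libraries. The nearest values of the groups were 2.35 and 2.38, a gap smaller than the spread within either group. How many gene pairs separate in this way was not examined, so nothing is read from it.

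Prrx1 differed mainly through 1 library. Prrx1 (ENSMUSG00000026586.16, chromosome 1, 163245119 to 163313710, minus strand) had 130, 117 and 142 CPM in tdT+GFP+ cells against 125, 121 and 79.2 CPM in tdT-GFP+ cells of kidneys 1, 2 and 3. The kidney 3 tdT-GFP+ library lay below the other 5, and the rest overlapped. The log2 fold change was 0.26 (SE 0.18), 0.08 without that library and 0.01 without both libraries of kidney 3.

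**Figure D2:**
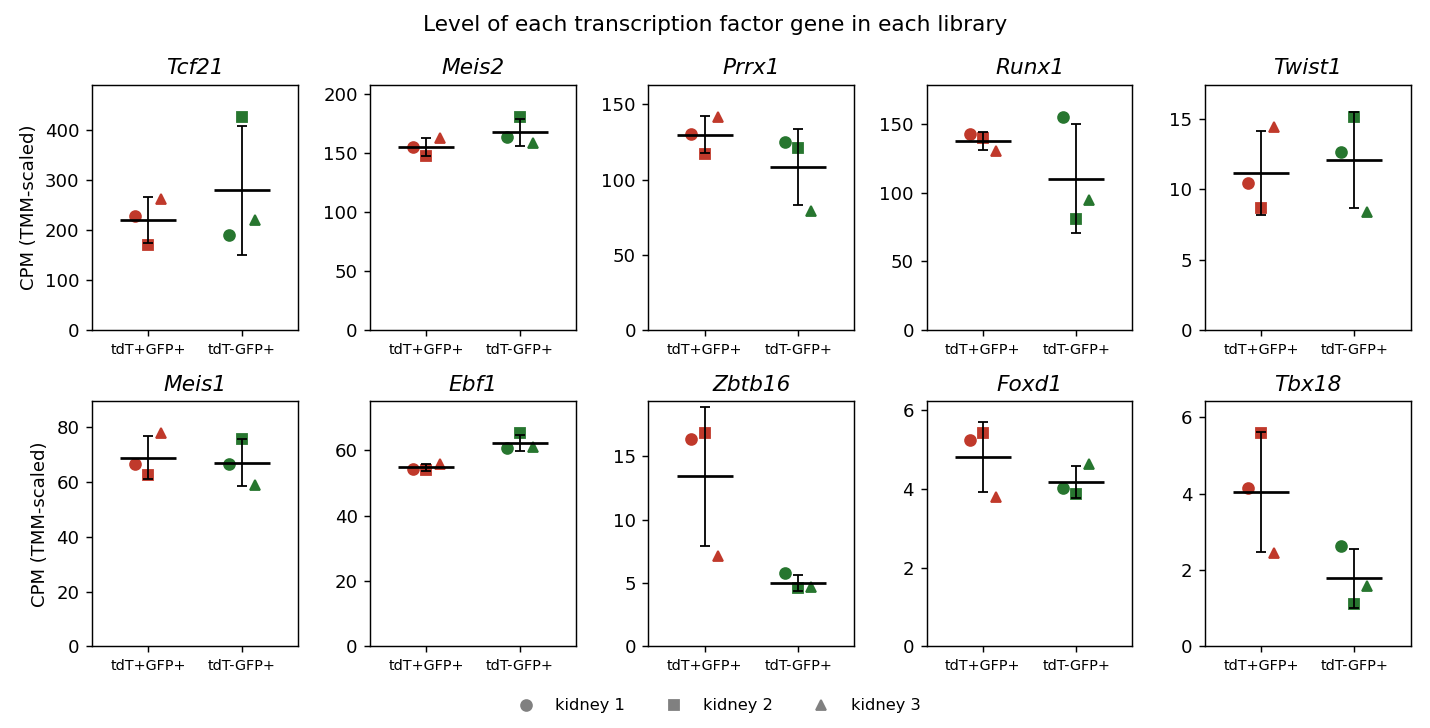
CPM of each gene in each library, from 0, with tdT+GFP+ on the left and tdT-GFP+ on the right of each panel, a symbol per kidney, and lines for the mean and SD of 3 libraries. The groups are separate for Zbtb16 and Ebf1 and overlap for the other 8 genes.

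In the fit across all genes, no member passed the threshold. By edgeR's quasi-likelihood test with Benjamini-Hochberg adjustment, 0 of the 10 were called in either direction, as were 0% of 15462 genes upward and 0% downward. The adjusted p-values were 0.394 for Zbtb16, 0.438 for Ebf1, 0.444 for Tbx18, and 0.585 to 0.912 for the rest. At an unadjusted p under 0.05 there were 2 members higher, Zbtb16 and Tbx18, against 3.71% of all genes, and 1 lower, Ebf1, against 6.97%, or 3 in either direction against 10.7%. The DESeq2 Wald test called 1 member higher, Zbtb16 (log2 fold change 1.42, adjusted p = 0.0084, and 1.33, adjusted p = 0.0108 with the kidney as a block, and a range of 0.0084 to 0.915 over all alternatives), where it called 0.117% of 14559 genes higher, and 0.287% of 14262 with the block. It called 0 members lower, against 1.81% of genes without and 1.66% with the block. The limma-voom test called 0. Since the genes were listed with this contrast known, nothing is read from these counts.

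By direction, 6 of the 10 fold changes were positive, against 49.9% of all genes, with a median of 0.12 against -0.00039 over all genes tested. Without both libraries of kidney 3 the middle values of the members were -0.14 (Meis1) and 0.01 (Prrx1). All tdT+GFP+ libraries lay above all tdT-GFP+ libraries for 1 of 10 members (7.23% of all genes) and below for 1 of 10 (8.6%). Tbx18 and Zbtb16 were higher in tdT+GFP+ cells within all 3 kidneys (2 of 10, against 15.4% of all genes), and Ebf1 was lower in all 3 (1 of 10, against 17.1%). Kidneys 2 and 3 differed in opposite directions for Tcf21, Meis1, Meis2, Twist1, Prrx1 and Foxd1. Over all genes tested, deviations from the group means correlated by -0.58 and -0.30 within kidneys 2 and 3. Across these kidneys they correlated by 0.45 and 0.44. The share of all genes with such opposite directions was not computed, so nothing is read from it about these members.

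**Figure D3:**
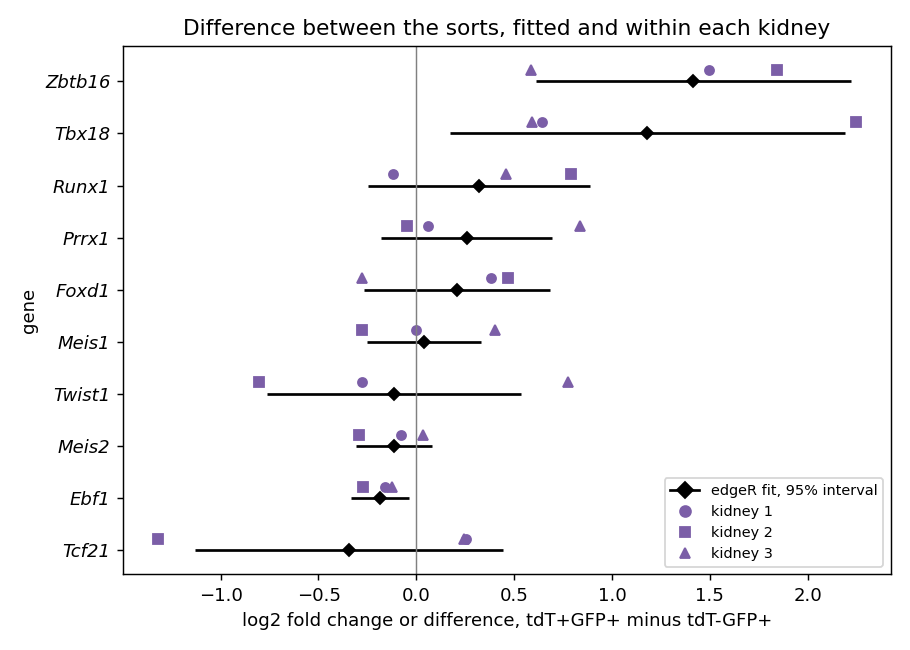
Difference between tdT+GFP+ and tdT-GFP+ cells for each gene on the log2 scale: the edgeR fold change with its 95% interval (black) and the difference within each kidney (purple symbols). The intervals of Zbtb16, Tbx18 and Ebf1 do not reach 0 before adjustment over all genes, and the kidney 2 and kidney 3 symbols lie on opposite sides of 0 for Tcf21, Meis1, Meis2, Twist1, Prrx1 and Foxd1.

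Across the 6 libraries the members fell into patterns that crossed the families. The values in this paragraph are Pearson correlations of log2 CPM over 6 libraries that are taken as pairs from 3 kidneys and differ in cell makeup. Meis1 and Twist1 ran together (r = 0.94), as did Tbx18 and Zbtb16 (r = 0.93), Tcf21 and Meis2 (r = 0.88) and Meis2 and Ebf1 (r = 0.86). Tbx18 ran against Ebf1 (r = -0.91) and Meis2 (r = -0.88), and Zbtb16 against Ebf1 (r = -0.89). Of the 45 pairs 23 had a positive r, with a median of 0.11. Tbx18, Zbtb16 and Foxd1 shared high values in the tdT+GFP+ libraries of kidneys 1 and 2, while Twist1, Meis1 and Prrx1 shared a high value in the tdT+GFP+ library and a low value in the tdT-GFP+ library of kidney 3.

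**Figure D4:**
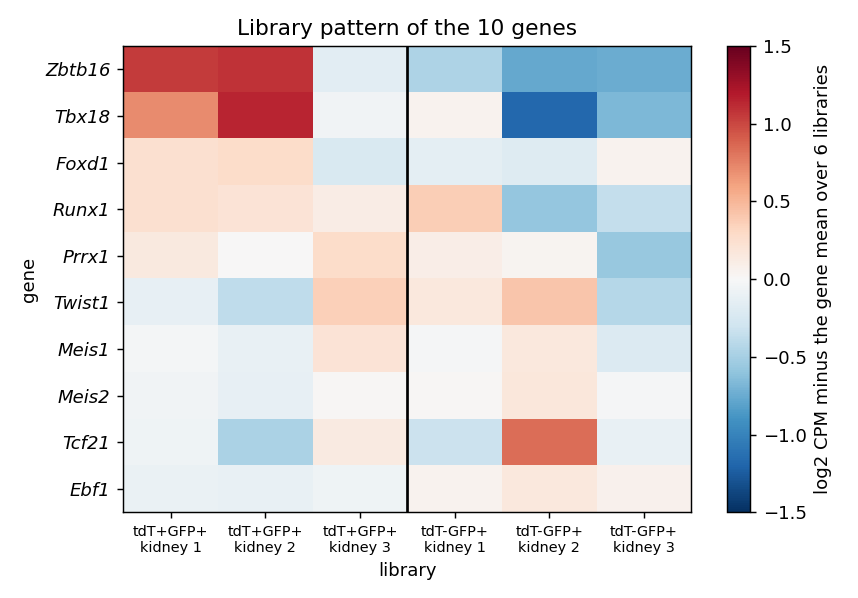
Log2 CPM of each gene minus its own mean over 6 libraries (colour), with the tdT+GFP+ libraries left of the black line and the tdT-GFP+ libraries right of it. Zbtb16 reaches 1.05 and 1.09 in the tdT+GFP+ libraries of kidneys 1 and 2, and Tcf21 reaches 0.84 in the tdT-GFP+ library of kidney 2.

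For each member the genes with the most similar pattern were looked up among 11113 candidates with a mean of at least 5 CPM, by the highest r over the 6 libraries. With so many candidates and 6 libraries, the r of the first-ranked genes ran from 0.994 to 0.999. Zbtb16 was most like Alas1, the entry enzyme of haem synthesis (r = 0.997), Ncoa4 and Rnmt. Tbx18 was most like Pdcd10 (r = 0.999) and Rab3gap2 (r = 0.997). Tcf21 was most like the stress-response gene Gadd45g (r = 0.998), the AP-1 subunit gene Jund (r = 0.996) and Crtc2, and Meis2 was most like Gadd45b (r = 0.999), Gsdmd and Ttc8. Foxd1 was most like Ikzf1, Alox5ap and Lair1 (r = 0.996, 0.995 and 0.995), which are genes of white blood cells. The macrophage and monocyte marker sum, 1155, 1682 and 459 CPM in tdT+GFP+ and 591, 337 and 1005 CPM in tdT-GFP+ libraries of kidneys 1, 2 and 3, had the same order of groups within each kidney as Foxd1. Its part in the Foxd1 values was not tested. Twist1 was most like the matrix genes Frem1 (r = 0.994) and Col16a1 (r = 0.992) and Gramd3. Prrx1 was most like Fam114a1 and Rcn2, Runx1 like Zfp729b, Idi1 and Rai14, Meis1 like the complement inhibitor gene Serping1, Efna2 and Ciao2b, and Ebf1 like Tnk2, Ttll7 and Cep57.

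Relatives and partners of the 10 factors were examined in 12 lists of 143 genes, of which 129 were tested, and 0 passed the edgeR threshold (smallest adjusted p = 0.388). The genes named are among the 3 with the highest level in each list. The exceptions, chosen after their values were seen, are Cbfa2t3, Runx1t1, Nr3c1, Nr3c2, Pdk4, Mt1, Fkbp5 and Per1. The sign of the median turned when 1 library was left out in the TALE, forkhead, T-box, paired-related, BTB, glucocorticoid and other stromal lists, so no direction is given for these. It held in the Runx, Ebf, bHLH, nephron and endothelial lists, though that of the Runx list was -0.07 without both libraries of kidney 2. The TALE relatives of the Meis proteins were split in direction. Of 9 TALE genes 5 had positive and 4 negative fold changes, with a median of 0.0029 (-0.05 to 0.04 with 1 library left out). Pknox2 had 86.3 ± 3.04 CPM in tdT+GFP+ and 73.0 ± 13.0 CPM in tdT-GFP+ cells (log2 fold change 0.24), and Tgif1 had a log2 fold change of -0.06. Of 6 Runx genes and partners 4 were positive (median 0.11, and 0.02 to 0.21 with 1 library left out), with 0.16 for Cbfb, the partner subunit that stabilises Runx proteins on DNA, 0.25 for Runx2 and 0.06 for Cbfa2t2. In that list 0 of 6 genes lay wholly higher in tdT+GFP+ libraries and 2 of 6 wholly lower, against 7.23% and 8.6% of all genes. The 2 were the corepressor genes Cbfa2t3 (-0.67, SE 0.17, adjusted p = 0.404, edgeR) and Runx1t1 (-0.23, SE 0.14). With so few genes nothing is read from this count.

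Zinc finger partners of the Ebf proteins lay on the same side as Ebf1 itself. Of 4 tested genes of that list 3 had negative values (median -0.35, and -0.42 to -0.28 with 1 library left out), and Zfp423, a co-factor that binds Ebf proteins, had 13.5 ± 1.99 CPM in tdT+GFP+ and 18.1 ± 2.63 CPM in tdT-GFP+ cells (log2 fold change -0.43, SE 0.15, adjusted p = 0.442, edgeR). Zfp521 had -0.55 (SE 0.25) and Ebf4 had -0.28 (SE 0.29). Of 11 bHLH relatives, E proteins and Id inhibitors 3 were positive (median -0.06, and -0.17 to -0.02 with 1 library left out). The E protein genes Tcf4 and Tcf12, whose products pair with Tcf21 and Twist1, had 255 ± 17.3 CPM in tdT+GFP+ against 255 ± 31.9 CPM in tdT-GFP+ cells (-0.0027) for the first and 133 ± 8.39 CPM in tdT+GFP+ against 129 ± 9.94 CPM in tdT-GFP+ cells (0.04), and the inhibitor gene Id3 had -0.06.

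Paralogs of the homeodomain, T-box and forkhead members were mixed. Of 3 tested paired-related genes 2 were positive (median 0.0072, and -0.19 to 0.25 with 1 library left out), and Alx1 was at 149 ± 29.1 CPM in tdT+GFP+ and 130 ± 60.1 CPM in tdT-GFP+ cells (0.19), with 0.0072 for Prrx2 and -0.32 for Alx4. Tbx2 and Tbx3, the T-box relatives tested, had -0.33 and 0.15 (median -0.09, and -0.25 to 0.07 with 1 library left out), at 154 ± 30.1 and 68.2 ± 16.2 CPM in tdT+GFP+ cells against 193 ± 52.1 and 61.6 ± 12.4 CPM in tdT-GFP+ cells. Of 9 forkhead relatives 6 were positive (median 0.06, but 0.24 without the kidney 1 and -0.08 without the kidney 2 tdT-GFP+ library), with 0.04 for Foxp1, 0.19 for Foxc2 and -0.25 for Foxc1. Among 30 other stromal and mesenchymal factors 17 were positive (median 0.02, and -0.04 to 0.16 with 1 library left out). The highest of them were Klf4 (-0.02), Nr2f2 (0.23) and Zeb2 (0.08).

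Genes around Zbtb16 were split. Of 11 BTB zinc finger relatives and corepressors 7 were positive (median 0.05, and -0.02 to 0.08 with 1 library left out), and Zbtb20 and Ncor1 had 0.07 and -0.04. Of 15 genes that respond to glucocorticoids elsewhere, 9 were positive and 6 negative (median 0.10, but 0.35 without the kidney 2 tdT-GFP+ library, 0.04 without the kidney 1 tdT+GFP+ library and -0.0058 without the kidney 3 tdT-GFP+ library). Errfi1, an inhibitor of the EGF receptor, had 731 ± 104 CPM in tdT+GFP+ and 470 ± 108 CPM in tdT-GFP+ cells (log2 fold change 0.64, SE 0.19), and the metallothionein gene Mt2 had 403 ± 53.8 CPM in tdT+GFP+ and 269 ± 50.5 CPM in tdT-GFP+ cells (0.58, SE 0.17). In both genes the groups did not overlap and the adjusted p was 0.414 (edgeR), and Dusp1 had 0.10. Nr3c1, the glucocorticoid receptor gene, had 101 ± 8.46 CPM in tdT+GFP+ and 120 ± 7.32 CPM in tdT-GFP+ cells (-0.24, SE 0.09). Pdk4 had -0.89 (SE 0.37), and in both genes the groups did not overlap. That makes 2 of 15 wholly higher and 2 of 15 wholly lower, against 7.23% and 8.6% of all genes. An unadjusted p under 0.05 (edgeR) was reached by 7 of 15, against 10.7% of all genes. Among them Errfi1, Mt2, Fkbp5 (0.55), Mt1 (0.46) and Per1 (0.38) were higher, and Nr3c1 and Nr3c2 (-0.93) were lower. The list was chosen with earlier results known, so nothing is read from these counts.

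Factors of other lineages had mostly negative fold changes, as did the endothelial markers. Of 18 tested nephron lineage factors 16 had negative values (median -0.68, but -0.38 without the kidney 3 tdT-GFP+ library), among them Pax8 (-0.76, SE 0.36) and Hnf4a (-0.27, SE 0.59). That library was the highest in both, at 54.9 CPM for Pax8 and 52.5 CPM for Hnf4a. Of 11 endothelial factors 9 had negative values (median -1.16, -0.90 without the kidney 3 tdT-GFP+ library and -0.84 without both libraries of kidney 3). Ets1 had -0.19, Fli1 0.03 and Sox17 -1.46 (SE 0.64). For Sox17 the groups overlapped, and the kidney 2 tdT-GFP+ library was the highest at 86.3 CPM. In this list 6 of 11 genes lay wholly lower in tdT+GFP+ libraries and 0 of 11 wholly higher, against 8.6% and 7.23% of all genes. The 10 stromal factors had a median of 0.12, between Meis1 (0.04) and Foxd1 (0.21). Without both libraries of kidney 3 their middle values were those of Meis1 (-0.14) and Prrx1 (0.01), so no direction is given for this median.

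**Figure D5:**
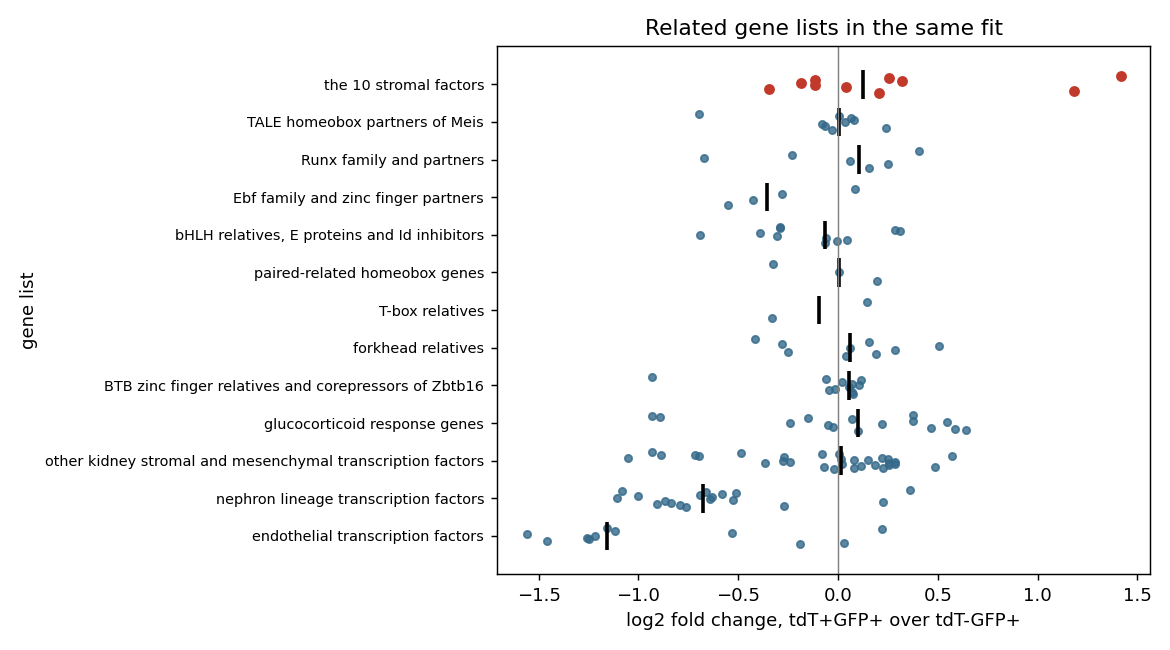
Log2 fold change of tdT+GFP+ over tdT-GFP+ cells for the 10 stromal factors (red) and for the tested genes of each related list (blue), with a black line at each median. The lines of the nephron and endothelial lists lie at -0.68 and -1.16, and those of the other lists lie between -0.35 and 0.12.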

How the data were processed

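Sorted mouse kidney cells gave 6 libraries, 3 each of tdT+GFP+ and tdT-GFP+. Per the labels' protocols, cortex and outer medulla were dissociated on ice, debris and doublets were gated out, and poly(A) libraries that keep the strand were made. The deposited values are estimated counts (RSEM gene results per the file headers), whole numbers as deposited. The submitters' processing notes list STAR 2.6.1, RSEM 1.2.28, DESeq2 1.26.0 and the builds mm10 and GRCh38, without roles. No source used here names the annotation. Identifiers without version matched GENCODE M21 (GRCm38) for 31748 of 31815 gene rows, which gave coordinates and exonic lengths. The 92 spike-in rows, all 0, were left out.

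Genes were filtered with filterByExpr, normalised by TMM and compared in edgeR 4.0.16 (quasi-likelihood, robust) in R 4.3.3, with Benjamini-Hochberg adjustment over all genes and a threshold of 0.05. SE was taken from the fold change and its F statistic. Scripts were tested on simulated data. Alternatives were DESeq2 1.42.0, limma-voom 3.58.1, other scalings and filters, the kidney as a block, and leaving out libraries or kidneys. For correlations, a prior count of 2 entered log2 CPM.

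The members and lists were chosen with earlier results of these data known. Named genes are the 10 members, the 3 most abundant tested genes of each list with any past the threshold, and the 3 genes most like each member; some of these are not reported here. The sample titles give replicate numbers 1 to 3 in both groups, and libraries of the same number were taken as 1 kidney, which pairs them. Deviations from the group means correlated by 0.039, -0.58 and -0.30 within kidneys 1, 2 and 3, and by 0.45 and 0.44 across kidneys 2 and 3, so the pairing rests on the labels alone.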

Additional observations from a re-analysis of the deposited data

How the results depend on the processing

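Of 170 fold changes of single members under an alternative, 160 kept their direction and side of the threshold. The sign turned for Tcf21 without the kidney 2 tdT-GFP+ library (0.090) or both libraries of kidney 2 (0.24). It turned for Twist1 without the kidney 2 tdT+GFP+ library (0.039), the kidney 2 tdT-GFP+ library (0.075) or both (0.23). It turned for Meis1 without the kidney 3 tdT+GFP+ library (-0.050), the kidney 3 tdT-GFP+ library (-0.046) or both (-0.14). Leaving out 1 library gave -0.54 to 0.090 for Tcf21, -0.33 to 0.075 for Twist1 and -0.050 to 0.13 for Meis1. The cause was not tested. The edgeR count of 0 genes higher and 0 lower became 17 and 264 in DESeq2, and 41 and 237 in DESeq2 with the replicate block, and 1 member, Zbtb16, was higher in both. With the kidney as a block in edgeR 0 genes and 0 members were called, and the block changed no other call of a member. Leaving out any 1 library or kidney gave 0 calls. Among list medians 121 of 132 moved by less than the median SE of their genes. The ranks of Ebf1, Twist1, Runx1 and Prrx1 by level depend on the transcript length used.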
